A study of Mus musculus with 9 samples.

Results

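The large heat shock chaperones described here are 10 genes of the HSP70, HSP110, HSP90, HSP40 and mitochondrial chaperone families, taken by name from the 24062 gene symbols counted in mouse gastrocnemius, a mixed-fibre calf muscle. They are Hspa8, Hspa1a, Hspa1b, Dnajb1, Hsph1, Hspa4, Hsp90ab1, Hsp90aa1, Hspd1 and Hspe1. The rule uses gene names and no measured value, but members and lists were chosen with earlier results of these data known. All 10 had enough reads to be tested, as had 12989 genes in all. RNA was sequenced from whole muscle of mice aged 3 months on a 129Sve/C57BL/6 mixed background, with 3 libraries from each of 3 genotypes. WT mice carried no altered allele of BubR1. The hetL1002P mice carried the L1002P allele of BubR1 beside a normal copy, and the hetX753 mice carried the X753 allele beside a normal copy. BubR1, the product of Bub1b, guards chromosome attachment in dividing cells, and both alleles belong to the inherited disorder MVA, mosaic variegated aneuploidy. Nothing in the labels ties each library to its own animal. P-values therefore reflect the spread among these libraries, which may be partly technical.

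Heat shock proteins of these families bind proteins that are unfolded and use ATP to help them fold, travel or be degraded. HSP70 proteins take substrates from J-domain partners (HSP40) and are reset by nucleotide exchange factors, among them the HSP110 proteins. HSP90 receives kinases, receptors and, in muscle, myosin at a later stage of folding, and the HSP60 barrel with its HSP10 lid folds proteins imported into mitochondria. HSF1, the main heat shock transcription factor, can switch on many of these genes when protein damage builds up, while other copies are made constantly.

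No chaperone of the 10 differed between genotypes at an adjusted p under 0.05 (edgeR quasi-likelihood test on all 9 libraries, Benjamini-Hochberg adjustment over 12989 genes), in any of the 3 comparisons. The same test called 0.508% of all genes in hetX753 against WT, 0% in hetL1002P against WT and 0.115% in hetX753 against hetL1002P. At an unadjusted p under 0.05 the members numbered 1, 1 and 2 in these comparisons, against 20.9%, 7.96% and 8.24% of all genes. DESeq2 and limma-voom also called 0 members in each comparison, where DESeq2 called 4.93%, 0.0385% and 1.06% of all genes and limma-voom 0.423%, 0.0154% and 0.123%. A fit of WT and hetL1002P with the replicate number as a block, whose same-numbered libraries deviated together, called 2 members, Hspa1b (adjusted p = 0.0392) and Hspe1 (adjusted p = 0.046), and 5.01% of all genes. Removing length and GC trends as well left 0 members called in that fit. In hetX753 against WT, 7 of the 10 members lay below 0 on the log2 scale, with a median log2 fold change of -0.14, against 49.6% of all genes and a median of 0.00. In hetL1002P against WT, 2 lay below 0 (48.1% of all genes) and the median was 0.05, against 0.01 for all genes. This count rests on hetL1002P 3: without that library 7 members lay below 0, and without WT 3 and hetL1002P 3 it was 8. In that comparison 0 members had groups that did not overlap, against 9.44% of all genes. In hetX753 against hetL1002P, 9 lay below 0 (52.6% of all genes) and the median was -0.12, against -0.01 for all genes, while 6 lay below 0 without hetL1002P 3. Scaling matters at this size of difference. When libraries were scaled by their totals only, the median of all genes moved to 0.12 in hetX753 against WT, where 5 members then lay below 0, and to 0.10 in hetL1002P against WT.

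Each library held 19768149 to 33977252 counted reads, of which the 10 members together took 0.299% to 0.354%. WT 3 and hetL1002P 3 stood apart from the rest, at -47.5 and -32.5 on the leading principal component (39.7% of the variance), with the other 7 libraries between -9.52 and 28.8. Bub1b itself was scarcely counted, with 11 to 21 counts per WT library, 2 to 10 per hetL1002P library and 5 to 8 per hetX753 library. All 14 muscle markers were present in every genotype, and their summed level was 192000 to 211000 CPM in hetX753 and 205000 to 230000 CPM in hetL1002P, below the 232000 to 256000 CPM of WT. Gene by gene they were split: against WT, 6 had a log2 fold change above 0 and 8 below in hetX753. In hetL1002P 7 lay above 0 and 7 below. CPM is the count scaled to a common library total after TMM normalisation. The fibroblast sum was likewise lower in hetX753 (564 to 726 CPM) than in WT (784 to 927 CPM), with hetL1002P at 494 to 1220 CPM. Marker sums of macrophages (80.2 to 137, 76.6 to 150 and 86.5 to 92.7 CPM in WT, hetL1002P and hetX753), smooth muscle, endothelium, Schwann cells and tendon overlapped between genotypes. The adipocyte sum was lower in hetL1002P (201 to 239 CPM) than in WT (300 to 472 CPM), with hetX753 at 239 to 491 CPM, and the lymphocyte sum was low but separated, at 1.43 to 2.6 CPM in hetX753 and 0.387 to 1.01 CPM in WT. Of 6 erythroid markers, 4 or 5 were at 0 in each genotype. In whole muscle, fewer cells of a type and less RNA per cell cannot be told apart, and the part of these markers in the results below was not tested.

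**Figure D1:**
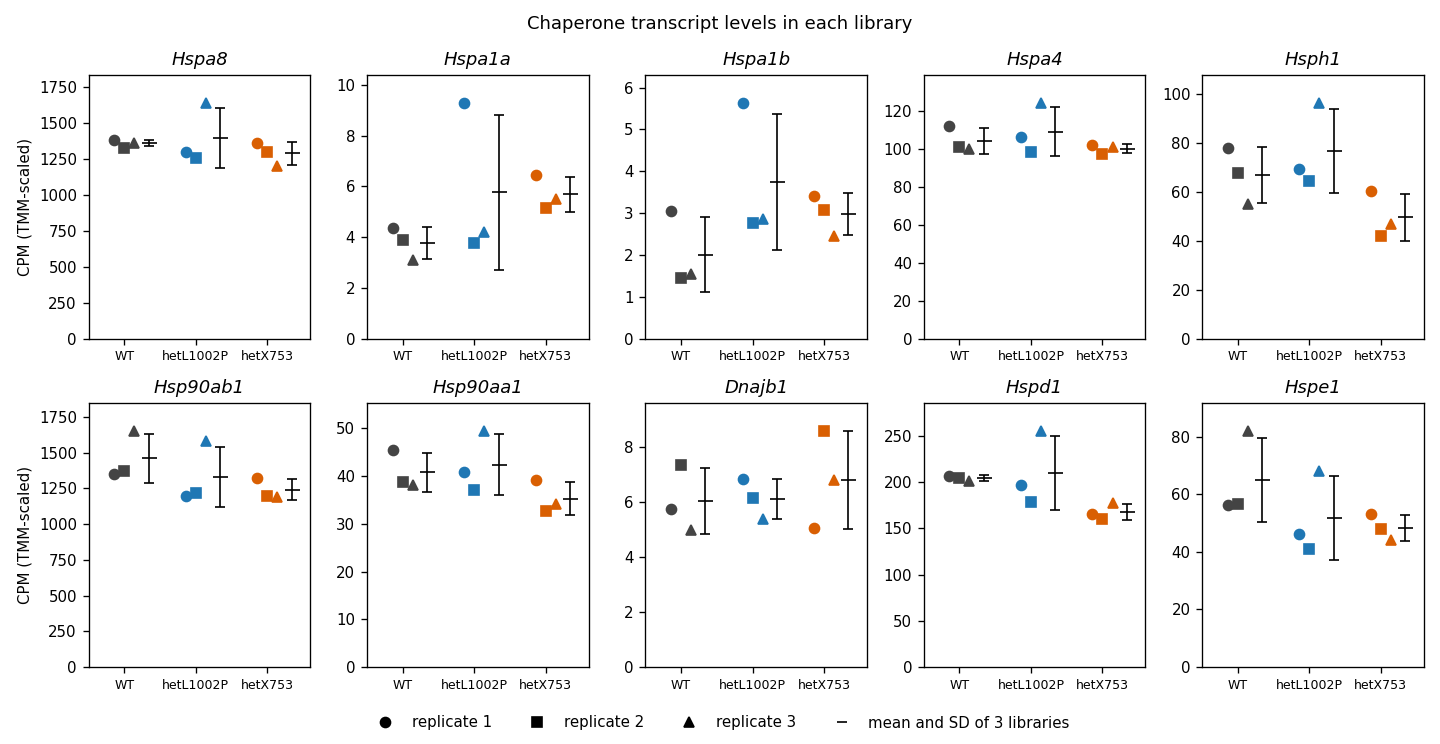
Each panel plots one chaperone gene's level in CPM (y axis, from 0) in the 9 libraries, by genotype (x axis), with marker shapes for the replicate number and a bar for the mean and SD of 3 libraries. Hsph1 is lowest in 2 hetX753 libraries (41.7 and 46.8 CPM), hetL1002P 1 is highest for Hspa1a and Hspa1b, and hetL1002P 3 is highest for Hspa8, Hspa4, Hsph1, Hsp90aa1 and Hspd1.

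The chaperones differed widely in abundance. Per kilobase of annotated exon, which allows genes to be compared with each other, Hsp90ab1 led in WT muscle at 485 ± 57.5 CPM per kb (SD, n = 3, as for all values of this kind), followed by Hspa8 at 315 ± 5.08 CPM per kb. The mitochondrial pair came next, with Hspd1 at 77.3 ± 1.25 and Hspe1 at 44 ± 10 CPM per kb. Hspa4 stood at 18.9 ± 1.21, Hsp90aa1 at 10.4 ± 1.05 and Hsph1 at 9.18 ± 1.59 CPM per kb. The 3 genes lowest in this order were Dnajb1 (1.88 ± 0.374), Hspa1a (1.27 ± 0.214) and Hspa1b (0.718 ± 0.32 CPM per kb). So the constitutive copies of HSP90 and HSP70 were the abundant ones, and the copies best known for induction by heat were scarce in every genotype. In this order the neighbours Hsp90aa1 and Hsph1 overlapped in their WT libraries, as did Hspa1a and Hspa1b, while each other neighbouring pair was separated. These levels assume that all annotated exon bases are transcribed and uniquely counted, which does not hold for every member: of the 50-base stretches of the Hspa1a, Hspa1b, Hsp90aa1, Hspd1, Hspa8 and Hspe1 exons, 66.3%, 62.3%, 47.5%, 42.1%, 39.4% and 22.8% also occur in another annotated gene, many of them processed pseudogenes.

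**Figure D2:**
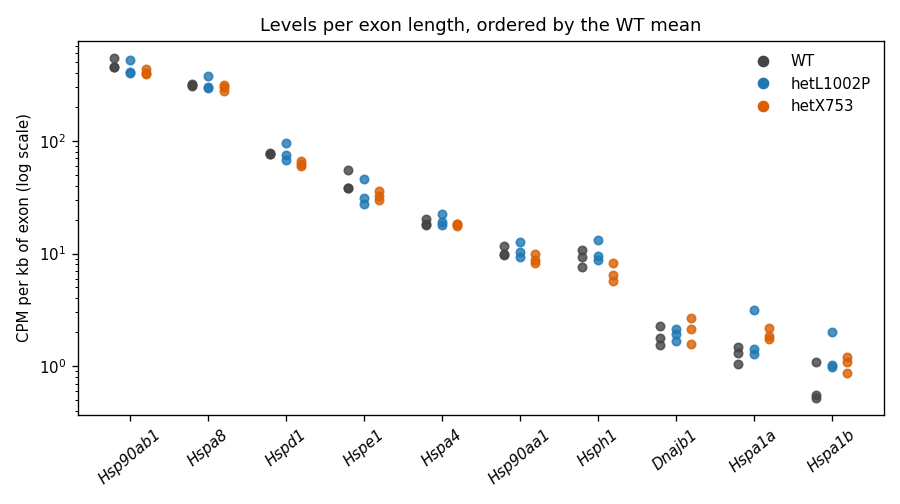
The level of each chaperone gene per kilobase of exon is plotted on a log axis (CPM per kb), with genes on the x axis ordered by the WT mean and 1 point per library coloured by genotype. Hsp90ab1 and Hspa8 lie at 279 CPM per kb or above in all 9 libraries, and Dnajb1, Hspa1a and Hspa1b at 3.13 CPM per kb or below.

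Hspa8, the constitutive cytosolic HSP70 (HSC70), lies on chromosome 9 from 40801276 to 40805202 (RefSeq gene bounds on GRCm38.p6, as for the other members). Its level was 1380, 1330 and 1360 CPM in WT, 1300, 1260 and 1640 CPM in hetL1002P and 1360, 1300 and 1200 CPM in hetX753. Only hetL1002P 3 stood out, and the genotypes overlapped. The log2 fold change was -0.07 (SE 0.12, 95% interval -0.35 to 0.20, adjusted p = 0.753) in hetX753 against WT and 0.05 (SE 0.12, adjusted p = 0.891) in hetL1002P against WT, so these data leave room for a hetX753 level lower by up to 0.35 on the log2 scale. With library totals alone as scaling the hetX753 value turned to 0.04, and without hetL1002P 3 the hetL1002P value turned to -0.08. Around the genotype means Hspa8 varied with a residual SD of 0.13 in log2-CPM, at percentile 17.7 of the genes tested, where the median gene had 0.24.

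Hspa1a and Hspa1b encode near-identical stress-inducible HSP70 proteins from neighbouring genes on chromosome 17 (GRCm38), 34969359 to 34972156 and 34956429 to 34959238, both on the minus strand and 10120 bases apart. Their promoters are shown because the genes are near-copies of each other. Over the 300-base windows around their starts (250 before to 50 after, RefSeq, GRCm38.p6) the sequences differed at 4 positions and were 98.7% identical. Both hold the heat shock element core GAANNTTC, in capitals below, whose first base lies at -104 from the start.
Hspa1a, chr17:34972157-34972406, minus strand: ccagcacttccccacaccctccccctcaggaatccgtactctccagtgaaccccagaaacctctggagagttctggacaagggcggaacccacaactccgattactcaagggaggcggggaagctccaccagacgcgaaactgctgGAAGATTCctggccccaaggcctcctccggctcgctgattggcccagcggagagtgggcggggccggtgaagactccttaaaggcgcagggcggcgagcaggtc
Hspa1b, chr17:34959239-34959488, minus strand: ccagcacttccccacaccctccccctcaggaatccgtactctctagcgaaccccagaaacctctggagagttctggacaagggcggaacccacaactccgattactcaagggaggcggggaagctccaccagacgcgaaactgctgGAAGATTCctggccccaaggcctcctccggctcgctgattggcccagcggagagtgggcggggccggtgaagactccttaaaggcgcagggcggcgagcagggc
Of 32851 promoter windows of this length in the RefSeq table, 8.52% hold TTCNNGAA and 7.86% hold GAANNTTC, 15.1% at least 1 of the pair (each reads the same on both strands, and the letters can overlap). RefSeq windows were matched for 7 of the 10 members, in 10 windows, of which 6 held at least 1 such core. These were the windows of Hspa1a, Hspa1b and Hspe1, both of Hsph1, and that of Hspd1 at its start 55087932. The Hspd1 window at the start 55088243 held 0. The Hspd1 cores are the same bases as those of Hspe1, and the Hspa1a and Hspa1b windows are near-copies, so these 6 windows are not independent.

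Hspa1a stood at 4.35, 3.87 and 3.09 CPM in WT, 9.28, 3.77 and 4.22 CPM in hetL1002P and 6.43, 5.13 and 5.49 CPM in hetX753. All 3 hetX753 libraries lay above all 3 WT libraries. Hspa1a was the only member of the 10 for which this held, as it did for 16.7% of all genes. Against WT this was a log2 fold change of 0.59 (SE 0.32, 95% interval -0.11 to 1.28, adjusted p = 0.305). In hetL1002P it was 0.60 (SE 0.32, adjusted p = 0.579), and this value rested on hetL1002P 1: without that library it was 0.07. Between the carriers it was -0.02 (SE 0.31), turning to 0.51 without hetL1002P 1.

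Hspa1b followed with 3.05, 1.45 and 1.55 CPM in WT, 5.63, 2.77 and 2.85 CPM in hetL1002P and 3.41, 3.08 and 2.45 CPM in hetX753, from 28 to 143 counts per library. The carriers overlapped WT only through WT 1. In log2 fold change against WT it stood at 0.86 in hetL1002P (SE 0.35, 95% interval 0.08 to 1.64, adjusted p = 0.579) and 0.53 in hetX753 (SE 0.36, 95% interval -0.26 to 1.32, adjusted p = 0.396). Without hetL1002P 1 the former was 0.44, and without WT 1 it was 1.32. Without WT 1 the latter was 0.99, and without WT 2 it was 0.35. When WT and hetL1002P libraries alone were fitted with a replicate block, Hspa1b in hetL1002P had a log2 fold change of 0.89 and passed the threshold (adjusted p = 0.0392), in a fit that called 5.01% of all genes. With transcript length and GC content trends also removed it did not (1.02, adjusted p = 0.0977).

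Because reads from Hspa1a and Hspa1b are partly interchangeable (58.8% of the 50-base stretches of Hspa1a occur in Hspa1b), how they were shared out is uncertain. Hspa1a also overlaps Gm20481 on the other strand over 564 exon bases, and the library kit does not mark strand. The summed level of both genes was 7.4, 5.32 and 4.64 CPM in WT, 14.9, 6.54 and 7.07 CPM in hetL1002P and 9.84, 8.21 and 7.94 CPM in hetX753. The sum thus lay above every WT library in all 3 hetX753 libraries and in hetL1002P 1, while hetL1002P 2 and hetL1002P 3 fell within the WT range. Over the 9 libraries log2-CPM of the genes correlated with Pearson's r = 0.84 (exact permutation p = 0.00591, adjusted over 6 pairs 0.0177) and Spearman's rho = 0.767 (exact permutation p = 0.0214, adjusted 0.0642). Without the 2 libraries farthest from the median of Hspa1a, hetL1002P 1 and hetX753 1, r was 0.603, and without WT 3 and hetL1002P 3 it was 0.804. The part of shared reads in this correlation was not tested.

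Dnajb1, the J-domain partner that delivers substrates to HSP70 and is itself heat-inducible, lies on chromosome 8 from 83608175 to 83612653. It stood at 5.74, 7.33 and 4.98 CPM in WT, 6.81, 6.15 and 5.36 CPM in hetL1002P and 5.03, 8.56 and 6.79 CPM in hetX753, from 103 to 217 counts. The highest library was hetX753 2, and the genotypes overlapped throughout. Against WT, log2 fold changes were 0.18 in hetX753 (SE 0.22, 95% interval -0.31 to 0.66, adjusted p = 0.661) and 0.03 in hetL1002P (SE 0.22, adjusted p = 0.972). Without hetX753 2 the former turned to -0.03. Dnajb1 and Hspa1b showed no clear correlation, with r = 0.0892 (exact permutation p = 0.815) and rho = 0.0667 over the 9 libraries. Without hetL1002P 1 and WT 2, the libraries farthest from the median of Hspa1b, r was 0.283. Without WT 3 and hetL1002P 3 it was -0.211, and with 1 library left out it ran from -0.184 to 0.367.

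Hsph1 (HSP105), an HSP110 protein that exchanges nucleotide on HSP70 and helps to take apart aggregates (chromosome 5, 149616843 to 149636498), had the smallest p of the members between the carriers. Its level was 77.9, 67.4 and 54.9 CPM in WT, 69.3, 64.3 and 96.1 CPM in hetL1002P and 60.3, 41.7 and 46.8 CPM in hetX753. Every hetX753 library lay below every hetL1002P library, while hetX753 1 lay within the WT range. The log2 fold change of hetX753 against hetL1002P was -0.63 (SE 0.19, 95% interval -1.05 to -0.20), 1.54-fold lower, with adjusted p = 0.384. Hsph1 and Hspd1 were the 2 members with the groups separated in this comparison, where 6.98% of all genes had hetX753 wholly below hetL1002P. Without hetL1002P 3 the value was -0.43 (adjusted p = 0.451), and over 19 alternative settings it ran from -0.79 to -0.43 with adjusted p of 0.156 or above. Against WT, hetX753 was lower by a log2 fold change of -0.43 (SE 0.19, adjusted p = 0.238), with a range of -0.60 to -0.30 over the alternatives. Comparing hetL1002P with WT gave 0.20 (SE 0.19, adjusted p = 0.693), turning to -0.12 without WT 3 and hetL1002P 3. The Hsph1 exons share no 50-base stretch with another annotated gene.

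A stretch near the 2 Hsph1 starts with promoter windows (chromosome 5, minus strand, RefSeq GRCm38.p6) holds a pair of overlapping heat shock element cores, in capitals. It is given for comparison with that of the mitochondrial pair further on. The cores begin 36 and 41 bases after the first start, or 15 and 20 bases after the second, and so lie within the transcript. A single core upstream of these starts, at -33 or -54 from them, is not shown. The RefSeq gene bounds of Hsph1 reach beyond both starts, to 149636498, so that core also lies inside the bounds. The extended motif TTCNNGAANNTTC, found here, occurs in 0.603% of all promoter windows, read on either strand.
Hsph1, chr5:149636287-149636316, minus strand: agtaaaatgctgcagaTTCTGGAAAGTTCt

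Hspa4 (APG-2), the other HSP110 protein (chromosome 11, 53259814 to 53300479), had the smallest residual spread of the members. It stood at 112, 101 and 100 CPM in WT, 106, 98.3 and 124 CPM in hetL1002P and 102, 97.3 and 101 CPM in hetX753. The genotypes overlapped, with hetL1002P 3 highest. Fold changes against WT on the log2 scale were -0.06 in hetX753 (SE 0.11, 95% interval -0.31 to 0.19, adjusted p = 0.783) and 0.07 in hetL1002P (SE 0.11, 95% interval -0.18 to 0.31, adjusted p = 0.812). With library totals alone the former turned to 0.06, and without hetL1002P 3 the latter turned to -0.03. Its residual SD of 0.11 in log2-CPM lay at percentile 11.8 of the genes tested, against 0.28 and percentile 60.9 for Hsph1. Its exons share no 50-base stretch with another annotated gene either.

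Hsp90ab1, the constitutive cytosolic HSP90 (HSP90β, chromosome 17, 45567778 to 45573261), had 1350, 1370 and 1650 CPM in WT, 1200, 1220 and 1580 CPM in hetL1002P and 1320, 1200 and 1190 CPM in hetX753. The hetX753 libraries all lay below the WT libraries, with a narrow gap between hetX753 1 and WT 1, and WT 3 and hetL1002P 3 were the high libraries of their genotypes. Relative to WT its log2 fold change was -0.23 in hetX753 (SE 0.14, 95% interval -0.54 to 0.08, adjusted p = 0.35) and -0.13 in hetL1002P (SE 0.14, adjusted p = 0.723). Without WT 3 the hetX753 value was -0.13, with library totals alone -0.11, and with length and GC trends removed -0.13.

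Hsp90aa1, the inducible cytosolic HSP90 (HSP90α, chromosome 12, 110691036 to 110696395), was at 45.5, 38.7 and 38.1 CPM in WT, 40.9, 37 and 49.4 CPM in hetL1002P and 39.2, 32.7 and 34.2 CPM in hetX753. The lowest 2 libraries were from hetX753, and hetX753 1 lay among the WT libraries. Its log2 fold change was -0.21 in hetX753 against WT (SE 0.14, adjusted p = 0.385), 0.05 in hetL1002P against WT (SE 0.14, adjusted p = 0.887) and -0.26 between the carriers (SE 0.14, adjusted p = 0.689). Without hetL1002P 3 the second of these turned to -0.07.

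Hsp90aa1 and Hsph1 gave the highest r of the 6 pairs tested. Their log2-CPM correlated with r = 0.955 over the 9 libraries (exact permutation p = 1.79e-04, adjusted over 6 pairs 0.00107) and with rho = 0.917 (exact permutation p = 0.00131, adjusted 0.00787). Without hetL1002P 3 and hetX753 2, the libraries farthest from the median of Hsp90aa1, r was 0.876. Without WT 3 and hetL1002P 3 it was 0.933, and between deviations from the genotype means it was 0.946. The relation thus held within genotypes as well as across them. Hspa8 and Hsph1 correlated with r = 0.739 (exact permutation p = 0.0228, adjusted 0.0455) and rho = 0.65 (exact permutation p = 0.0666, adjusted 0.129), but r was 0.246 without hetL1002P 3 and hetX753 3, so that relation rests on those libraries. Hsp90aa1 and Hsp90ab1, the isoforms of cytosolic HSP90, gave r = 0.547 (exact permutation p = 0.125, adjusted 0.15) and rho = 0.45.

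Hspd1 (HSP60) and Hspe1 (HSP10) form the mitochondrial chaperonin and are transcribed head to head from chromosome 1, where Hspd1 spans 55077833 to 55088243 and Hspe1 55088148 to 55091317. In RefSeq (GRCm38.p6) the Hspe1 start at 55088148 on the plus strand lies 95 bases from the Hspd1 start at 55088243 and 216 bases from that at 55087932, both on the minus strand. Upstream of the Hspe1 start lie 3 overlapping heat shock element cores, in capitals, beginning at -89, -84 and -79 from it. The stretch is shown because it lies between the Hspe1 start and the farther Hspd1 start, and it holds the same extended motif as the Hsph1 stretch above.
Hspe1 and Hspd1, chr1:55088053-55088082, plus strand: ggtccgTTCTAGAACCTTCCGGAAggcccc
Hspa4 and Dnajb1 windows held neither core, which says only that these letters are not in those windows.

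Hspd1 was at 207, 204 and 201 CPM in WT, 197, 179 and 255 CPM in hetL1002P and 166, 160 and 177 CPM in hetX753. All 3 hetX753 libraries were below every library of the other genotypes. This gave a log2 fold change of -0.28 against WT (SE 0.13, 95% interval -0.58 to 0.01, adjusted p = 0.257), or 1.21-fold lower. Against hetL1002P it was -0.32 (SE 0.13, 95% interval -0.62 to -0.03, adjusted p = 0.561). Neither passed the threshold. Without hetL1002P 3 the latter was -0.16, and with length and GC trends removed the former was -0.17. Comparing hetL1002P with WT gave a log2 fold change of 0.04 (SE 0.13, adjusted p = 0.911), turning to -0.12 without hetL1002P 3.

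Hspe1 was at 56.2, 56.5 and 81.9 CPM in WT, 46.1, 40.9 and 68.2 CPM in hetL1002P and 53.2, 47.8 and 44.2 CPM in hetX753. WT 3 and hetL1002P 3 were far above the others, and hetX753 lay below all WT libraries. Hsp90ab1, Hspd1 and Hspe1 were the 3 members with hetX753 wholly below WT, which held for 15.8% of all genes. Against WT the hetX753 log2 fold change was -0.42 (SE 0.20, 95% interval -0.87 to 0.03, adjusted p = 0.264), but -0.22 without WT 3 and -0.20 with length and GC trends removed. For hetL1002P against WT it was -0.33 (SE 0.20, adjusted p = 0.583), -0.13 without WT 3 and -0.58 without hetL1002P 3. With the replicate block on those 2 genotypes it was -0.35 and passed the threshold (adjusted p = 0.046), and with length and GC trends also removed it was -0.16 and did not (adjusted p = 0.395). Between the carriers it was -0.09 (SE 0.20), turning to 0.16 without hetL1002P 3.

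The partners of the chaperonin did not keep a fixed ratio. Hspe1 over Hspd1 in CPM was 0.271, 0.277 and 0.408 in the WT libraries. In hetL1002P it was 0.234, 0.229 and 0.268, and in hetX753 0.32, 0.298 and 0.249. WT 3 held the highest ratio, and the hetL1002P ratios all lay below those of WT, by a narrow margin at hetL1002P 3. The genes' log2-CPM correlated with r = 0.592 (exact permutation p = 0.0941, adjusted 0.141) and rho = 0.617 (exact permutation p = 0.0857, adjusted 0.129), which did not pass. Without WT 3 and hetL1002P 3 r was 0.412. The genes overlap by 112 exon bases on opposite strands, which this kit cannot separate.

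**Figure D3:**
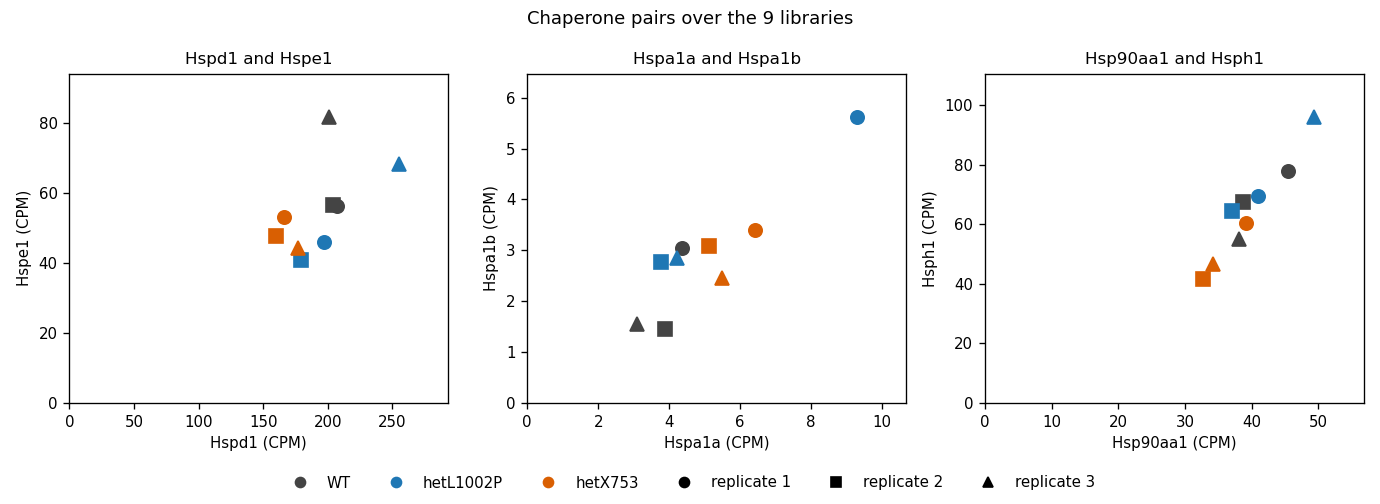
Each panel plots the CPM of one chaperone gene against that of another (both axes from 0) in the 9 libraries, coloured by genotype with marker shapes for the replicate number. Hsp90aa1 and Hsph1 lie close to a line (r = 0.955), Hspa1a and Hspa1b are stretched by hetL1002P 1, and WT 3 sits apart for Hspd1 and Hspe1.

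The members were not uniformly correlated. Of their 45 pairs, 28 had r above 0 over the 9 libraries, with a median of 0.253 and a range from -0.675 (Hsp90ab1 and Dnajb1) to 0.965 (Hsp90ab1 and Hspe1), as a description with no test. The libraries share depth and RNA quality between genes, so these r values are not independent. In hetL1002P 3 the deviation from the 9-library mean in log2-CPM was 0.62 for Hsph1, 0.40 for Hspd1, 0.34 for Hspe1 and 0.33 for Hsp90aa1. It was 0.29 for Hspa8, 0.25 for Hspa4, 0.24 for Hsp90ab1 and 0.07 for Hspa1b, while it was -0.19 for Hspa1a and -0.21 for Dnajb1. In hetL1002P 1 Hspa1a and Hspa1b deviated by 0.93 and 1.03, with the other 8 members between -0.22 and 0.15. High Hspa1a and Hspa1b and high Hsph1 therefore occurred in different libraries of the same genotype. The spread around genotype means was also uneven: Hspa1a and Hspa1b had residual SDs of 0.44 and 0.49 (percentiles 83.9 and 87.8 of the genes tested), Hspe1 0.30 and Dnajb1 0.29, while Hspd1, Hsp90aa1 and Hsp90ab1 had 0.16, 0.17 and 0.17.

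**Figure D4:**
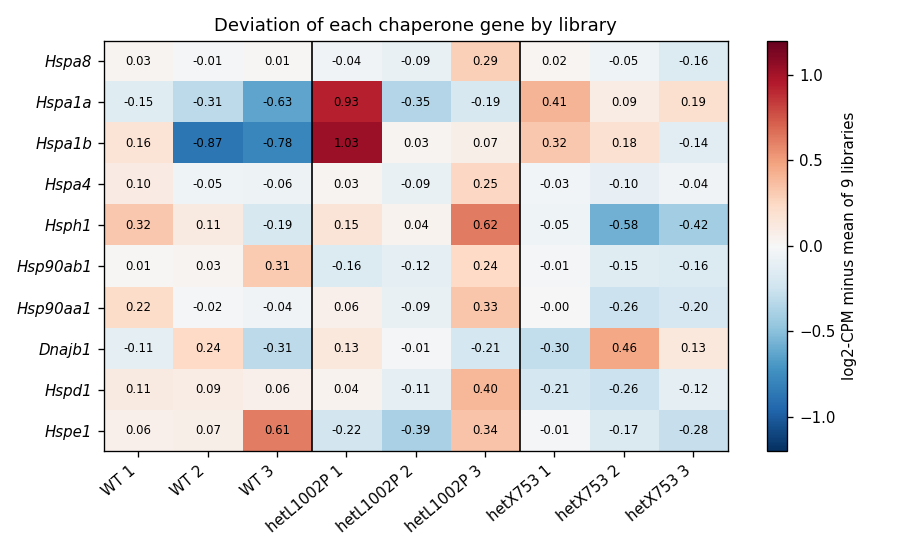
The grid shows each chaperone gene (rows) in each of the 9 libraries (columns, grouped by genotype) as log2-CPM minus that gene's mean over the 9 libraries, printed in each cell and coloured from blue (below) to red (above). The column of hetL1002P 3 is reddest for Hsph1, Hspd1, Hspe1 and Hsp90aa1, and that of hetL1002P 1 for Hspa1a and Hspa1b.

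The genes whose pattern over the 9 libraries was most like that of a member differed from member to member. Closest to Hspe1 were Mrpl28 (r = 0.999), Uqcrh (0.996), Ndufb4 (0.996), Uqcc2 (0.995) and Tmem147 (0.995). Mrpl28 encodes a protein of the mitochondrial ribosome, and Uqcrh and Ndufb4 encode small subunits of respiratory chain complexes. The pattern is not confined to mitochondrial genes, as the cytosolic member Hsp90ab1 followed Hspe1 with r = 0.965. Hspe1 was highest in WT 3 and hetL1002P 3, with deviations of 0.61 and 0.34 from its 9-library mean. Among the closest to Hsph1 were Npnt (0.968), Spata5l1 (0.954), Pdss2 (0.948) and 6030458C11Rik (0.947). Closest to Hspa1b were Pcdh18 (0.931), St13 (0.929), Icmt (0.907), Gatc (0.907) and Ept1 (0.904), of which St13 encodes HIP, an HSP70 cofactor. Each r is the highest among 12989 genes on 9 points and is a description only.

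**Figure D5:**
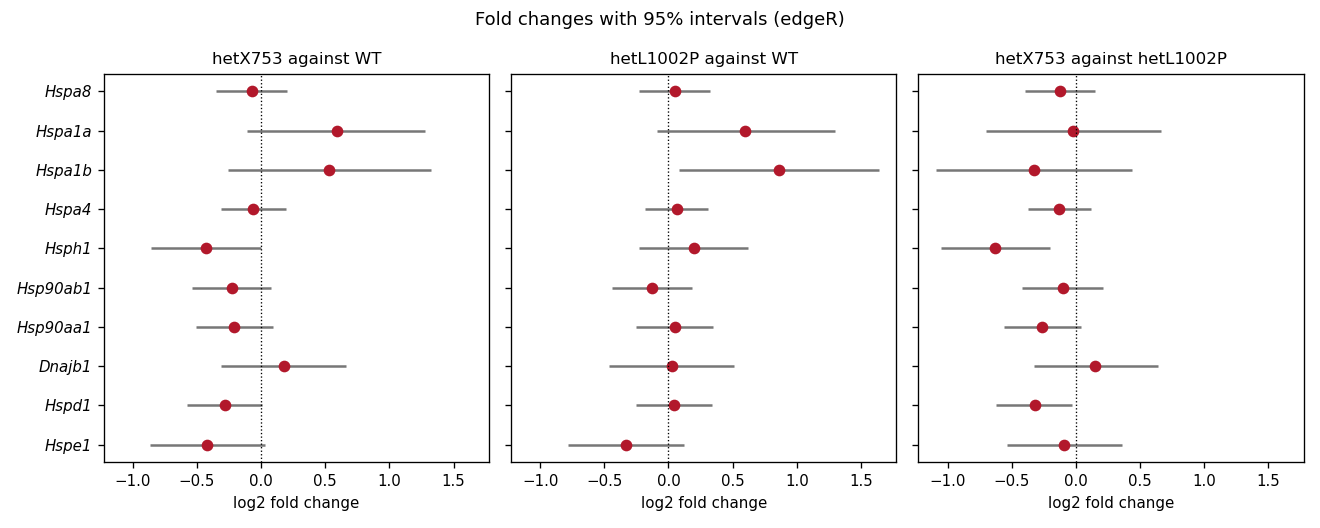
The log2 fold change of each of the 10 chaperone genes (points) with its 95% interval (lines) is plotted for the 3 comparisons, with 0 dotted. The intervals of Hsph1 and Hspd1 in hetX753 against hetL1002P, that of Hsph1 in hetX753 against WT and that of Hspa1b in hetL1002P against WT lie to one side of 0, and none of these has an adjusted p under 0.05.

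Other genes of the chaperone network were read from 10 lists, which held 115 tested genes. Of these, 20 were immediate early genes, which are not chaperones and are described last. EdgeR called 0 of them in any comparison, with 31, 9 and 13 at an unadjusted p under 0.05 in hetX753 against WT, hetL1002P against WT and hetX753 against hetL1002P, where 20.9%, 7.96% and 8.24% of all genes had such a p. DESeq2 called 6, 0 and 1 of the 115, against 4.93%, 0.0385% and 1.06% of all genes, and limma-voom called 0. All 5 genes of the HSF list (the heat shock factors and their binding proteins) lay below 0 in hetX753 against WT (49.6% of all genes), with a median log2 fold change of -0.26, and 2 had an unadjusted p under 0.05. Hsf1 was at 62.8 ± 4.31 CPM in WT and 51.1 ± 4.42 CPM in hetX753, with a log2 fold change of -0.30 (SE 0.12, adjusted p = 0.195) and no overlap between the groups. With library totals alone it was -0.17. Hsf4, a heat shock factor best known from the lens, gave -0.39 (SE 0.16, adjusted p = 0.217), and -0.15 with length and GC trends removed. In hetL1002P against WT 4 of the 5 lay below 0, with a median of -0.16.

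The CCT chaperonin is the cytosolic barrel that folds actin and tubulin. All 8 of its subunits lay below 0 in hetX753 against WT (49.6% of all genes), with a median of -0.27, and 3 had an unadjusted p under 0.05 (20.9% of all genes). All 8 also lay below 0 in hetL1002P against WT (48.1% of all genes), with a median of -0.15 and 0 with such a p. These comparisons share the WT libraries. Cct3 was at 90.2 ± 10.3 CPM in WT and 70.8 ± 5.98 CPM in hetX753 (log2 fold change -0.35, SE 0.13, adjusted p = 0.186, and -0.22 with library totals alone), and Cct8 at 120 ± 7.95 and 96 ± 1.98 CPM (-0.32, SE 0.14, adjusted p = 0.224). Among 13 mitochondrial chaperone partners, 8 lay below 0 in hetX753 against WT with a median of -0.14, and Pam16, part of the import motor, gave -0.55 (SE 0.23, adjusted p = 0.209), and -0.29 without WT 3.

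The endoplasmic reticulum HSP70 stood on the other side. Hspa5 (BiP) averaged 173 ± 1.13 CPM in hetX753, against 132 ± 6.95 CPM in WT and 137 ± 9.59 CPM in hetL1002P. The hetX753 libraries, at 172 to 174 CPM, lay above every other library. The log2 fold change against WT was 0.39 (SE 0.10, 95% interval 0.17 to 0.61, adjusted p = 0.114), and DESeq2 called it (adjusted p = 0.0054), as did edgeR without hetL1002P 3 (adjusted p = 0.0404). Over the 10 genes of its list (other HSP70 and HSP110), 6 lay above 0 and 4 below, with a median of 0.12.

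Cofactors of HSP70 and HSP90 were mixed. Of 22 J-domain genes 9 lay above 0 and 13 below in hetX753 against WT (median -0.01), of 18 HSP90 cochaperones 8 and 10 (median -0.05), and of 10 HSP70 exchange factors and cofactors, the ubiquitin ligase gene Stub1 included, 4 and 6 (median -0.07). Fnip1, which slows the HSP90 ATPase, was at 24.1 ± 3.25 CPM in WT and 44.4 ± 18.4 CPM in hetX753 (0.88, SE 0.27, adjusted p = 0.138, DESeq2 0.0399), and its log2 fold change was 0.50 without hetX753 3. Chordc1, a heat-inducible HSP90 cochaperone, averaged 31.1 ± 2.22 CPM in hetL1002P and 24 ± 2.31 CPM in hetX753, without overlap, as Hsph1 did (-0.38, SE 0.11, adjusted p = 0.346).

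Small heat shock proteins, ATP-independent holdases abundant in muscle, gave the smallest adjusted p-values of the network. Hspb7 averaged 480 ± 46.5 CPM in hetX753, against 242 ± 51.2 CPM in WT and 339 ± 99.5 CPM in hetL1002P, a log2 fold change of 0.99 in hetX753 against WT (SE 0.21, adjusted p = 0.0753). Hspb3 averaged 19.9 ± 1.63 CPM, against 31.3 ± 2.24 and 26 ± 4.72 CPM, a log2 fold change of -0.66 (SE 0.14, adjusted p = 0.0753). Neither gene's hetX753 libraries overlapped those of WT. Both missed the threshold and passed it with DESeq2 (adjusted p = 0.00136 and 0.0038) and with only the WT and hetX753 libraries in the fit (0.0282 and 0.0302). With length and GC trends removed Hspb7 was at 1.13 (adjusted p = 0.0419), while Hspb3 was at -0.38 and did not pass (adjusted p = 0.111). Without hetX753 3 the adjusted p-values rose to 0.302 and 0.306, the highest over all settings, while without hetL1002P 3 both passed (0.0239 and 0.0144). With the replicate block Hspb7 passed (adjusted p = 0.0237) and Hspb3 did not (adjusted p = 0.0723). Of the 7 tested members of this list 6 lay below 0 (median -0.39), so Hspb7 went against the rest.

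Immediate early genes, which respond within minutes to handling and stress, were read beside the chaperones. Of 20 tested, 13 lay below 0 in hetX753 against WT and 16 in hetL1002P against WT, with a median of -0.24 in both, and their summed level overlapped between genotypes (473 to 522 CPM in hetL1002P, 475 to 630 CPM in hetX753, 467 to 652 CPM in WT). Fos ranged from 5.94 to 53.9 CPM within WT alone and from 1.97 to 3.92 CPM in hetX753 (log2 fold change -2.86, SE 0.79, adjusted p = 0.126). Without WT 1 the value was -1.08. Atf3, a stress-induced transcription factor, ranged from 2.9 to 4.18 CPM in WT and from 5.01 to 11.2 CPM in hetX753 (1.27, SE 0.39, adjusted p = 0.138, DESeq2 0.0313). Whether these levels bear on those of the inducible chaperones was not tested.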

How the data were processed

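Values are read counts per gene symbol as the authors deposited them: whole numbers, without normalization, for 9 libraries. The library kit was TruSeq RNA v2, which is not stranded (kit per the labels' protocols). The submitters' processing notes list mm10 and the tools featureCounts 1.4.6 (Subread), TopHat2 2.0.14 and Bowtie2 2.2.6. Annotation and strand setting: not given in the sources used here. Members and lists were chosen with earlier results of these data known.

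Testing used edgeR 4.0.16 under R 4.3.3: filterByExpr, TMM and a robust quasi-likelihood fit over all libraries (6 residual degrees of freedom). Benjamini-Hochberg adjustment followed, with 0.05 as threshold. A self-test ran this fit on counts simulated independently for each gene and library. Those counts hold no shift shared by the genes of a library, such as that of WT 3 and hetL1002P 3, so the self-test does not cover it. Log2-CPM had a prior count of 2. Alternatives were DESeq2 1.42.0, limma-voom 3.58.1, other scalings, no low-count filter, 2-genotype fits, length and GC offsets (GENCODE M21, GRCm38) and left-out libraries. All members were named; from each list, the 3 tested genes with the smallest p over the comparisons could be. A gene that the rule for like patterns takes is not reported here.

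What the titles' replicate numbers stand for is not stated. Same-numbered WT and hetL1002P libraries deviated together from their genotype means (r = 0.285, 0.36 and 0.516, each over the 0.1 required for pairing), those with hetX753 did not (-0.279 to 0.164). Some libraries of different number also passed 0.1, such as WT 1 with hetL1002P 2 (0.198) and hetL1002P 3 with hetX753 1 (0.281). Deviations from a mean of 3 libraries sum to 0, so the 3 same-numbered values are not independent, and WT 3 and hetL1002P 3 were the libraries that stood apart. Libraries of a genotype differed by a chi-square of 14.3 to 65.6 per degree of freedom, so none counted as a duplicate.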

Additional observations from a re-analysis of the deposited data

How the results depend on the processing

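Of 570 values (30 member fold changes under 19 alternatives), 533 kept their direction and their side of the threshold, 35 turned sign and 2 passed it. Those 2, Hspa1b and Hspe1 in hetL1002P against WT, passed with the replicate block, which made the members called 2 and changed no other member's call. The cause of the changes below was not tested.

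Genes called in hetX753 against WT (66) numbered 640 with DESeq2, 31 with library totals alone, 254 with only the 2 genotypes, 106 with the replicate block, 131 with block, length and GC, 340 without both WT 3 and hetL1002P 3, and 0 (without WT 1) to 669 (without hetL1002P 3) with a library left out. In hetL1002P against WT (0) they numbered 5 with DESeq2, 2 with limma-voom, 2 with no low-count filter, 635 with the block, 7 with block, length and GC, 1 with length and GC, 2 without both libraries, and 0 to 1 with a library left out. In hetX753 against hetL1002P (15) they numbered 138 with DESeq2, 38 with no filter, 5 with the 2 genotypes, 2 with the block, 2 with block, length and GC, 35 with length and GC, 95 without both libraries, and 0 (without hetL1002P 1) to 19 (without hetL1002P 3) with a library left out.

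Signs that turned in hetX753 against WT were Hspa4 0.06 and Hspa8 0.04 with totals alone, Tomm70a -0.05 with length and GC, with and without the block, and Dnajb1, -0.03 (without hetX753 2) to 0.35 with a library left out. In hetL1002P against WT they were Hspa4 -0.02 with length and GC (-0.04 with the block too), Trap1 0.02 by both, Hspa8 -0.00 with block, length and GC, and Dnajb1, -0.09 (without WT 3) to 0.18. With a library left out, the lowest value came without hetL1002P 3 for Hsph1 (-0.00 to 0.32), Hspa4 (-0.03 to 0.13), Hspa8 (-0.08 to 0.11), Hsp90aa1 (-0.07 to 0.14) and Hspd1 (-0.12 to 0.14). Without both WT 3 and hetL1002P 3 these 5 were -0.12, -0.06, -0.08, -0.11 and -0.13, and Dnajb1 -0.00. Members below 0 numbered 7 of 10 without hetL1002P 3 and 8 without both, from 2.

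In hetX753 against hetL1002P the highest value came without hetL1002P 3 for Hspa8 (-0.19 to 0.01), Hsp90ab1 (-0.17 to 0.04) and Hspe1 (-0.23 to 0.16), which were 0.01, 0.03 and 0.15 without both libraries. It came without hetL1002P 1 for Hspa1a (-0.25 to 0.51) and Hspa1b (-0.51 to 0.09), and Dnajb1 ran from -0.05 (without hetX753 2) to 0.33. Hspa1a was 0.10 with limma-voom, 0.00 with totals alone, 0.08 with the block and 0.07 with block, length and GC. The r of Hspa1b and Dnajb1 turned to -0.211 without both libraries, an alternative chosen after seeing the data. Hspa1a and Hspa1b rest on the lowest depth, 28 to 236 counts per library.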
